A study of Homo sapiens with 6 samples.

Results

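Knockdown of ALYREF with siRNA5 was compared with a non-targeting control siRNA over all 11679 genes of the authors' deposited table, which is every gene row of that table once the rows of reads without a feature and of ambiguous reads are set aside. The cells were 786-O, an established human clear cell renal cell carcinoma line that lacks functional VHL and is widely used to study signalling by hypoxia-inducible factors. The control (NTC, 2 libraries) received the AllStars negative control siRNA and the knockdown (siRNA5, 2 libraries) received a FlexiTube siRNA against ALYREF, both with DharmaFECT 1, in RPMI with 10% FBS, 5% CO2 and atmospheric oxygen. All cells were split into fresh medium at 24 h and harvested at 48 h, and every group carries a transfected siRNA, so no untransfected cells stand beside them. A second ALYREF siRNA (siRNA8, 2 libraries) was transfected in the same way and is used here only to show where siRNA5 differed from it. The labels do not say that the duplicates were separate cultures, so p-values reflect only how far these libraries differ, and that spread may be technical.

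ALYREF is an RNA-binding adaptor of the TREX complex. It is loaded onto messenger RNA during capping, splicing and 3′ end processing and hands the packaged transcript to the export receptor NXF1, which carries it through the nuclear pore. Cells hold further adaptors, among them CHTOP, and transcripts are thought to differ in how much they depend on each. The RNA measured here was polyadenylated RNA of whole cells, so nuclear and cytoplasmic transcripts were not separated. In a bulk lysate, fewer cells with a transcript and less of it per cell cannot be told apart.

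All log2 fold changes, standard errors (SE) and adjusted p-values against the control are those of the authors' deposited table, from DESeq2's Wald test with Benjamini-Hochberg adjustment. A gene was called, and is said here to have risen or fallen, at an adjusted p under 0.05. The table gives 1 mean normalized count per gene over the libraries of the fit and no value per library. The level in each group was therefore estimated from that mean and the fold changes of both siRNAs, and such levels are group estimates without an error of their own. The median gene mean was 459 normalized counts and the lowest was 11.6. The median SE was 0.107 on the log2 scale over all genes, 0.0727 among 5538 genes whose mean was 500 or more and 0.438 among 1423 genes whose mean was under 50. The sign of the table was read from ALYREF itself, so the fall of ALYREF checks the size of the knockdown and not its direction.

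The target was strongly depleted. ALYREF went from 7711 to 437 estimated normalized counts and was left at 5.67% of the control level (17.64-fold lower, 95% interval 15.5 to 20.1), with a log2 fold change of -4.14 (SE 0.096) according to the authors' deposited table. Its adjusted p is listed as 0 there. The estimated level with siRNA8 was 604, and ALYREF was lower with siRNA5 than with siRNA8 (adjusted p of the difference = 0.00152, a normal test of the difference of both fold changes adjusted over all genes).

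Loss of ALYREF with siRNA5 went with broad and mostly small changes. Of the 11679 genes, 46.4% were called in the authors' deposited table, 24.4% higher (2852 genes) and 22.0% lower (2571 genes). The median log2 fold change over all genes was 0.01, with quartiles at -0.26 and 0.25. The called rises had a median of 0.39 and the called falls a median of -0.47. Large falls outnumbered large rises, with 363 genes lower and 193 genes higher by at least 2-fold, and 29 lower and 11 higher by at least 4-fold. At the other end, 1028 called rises and 737 called falls had a log2 change of 0.322 or less in size. These shares of 24.4% and 22.0% are the background against which each gene group is set below.

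Chromatin proteins and cell surface proteins were among the deepest falls of abundant transcripts, taken as genes with a mean of at least 500. C11orf68 fell from 1300 to 275 estimated normalized counts (4.72-fold, adjusted p = 1.48e-96). TRNP1, a nuclear protein of progenitor cells, fell from 984 to 238 (4.13-fold, adjusted p = 2.23e-66). The linker histone gene H1FX went from 982 to 246, and H2AFX, whose histone is phosphorylated at DNA breaks, went from 3049 to 844 (3.62-fold lower, adjusted p = 1.01e-140). Both histone genes have a single exon and give polyadenylated transcripts. CLDN4, a claudin of tight junctions, fell from 1997 to 559, and SERINC2, a membrane protein of the serine incorporator family, fell from 1647 to 464. Enzymes among the leading falls were PLCE1, a phospholipase C that responds to Ras (from 949 to 281), SRD5A1, a steroid 5α-reductase (from 871 to 267), and CHPF2, which helps to build chondroitin sulfate chains (from 2148 to 698). The growth factor gene FGF2 fell by 1.52 (SE 0.092), the Rac activator gene DOCK2 fell by 1.45 (SE 0.12), and SH3GL1, which encodes an endophilin that acts in endocytosis, fell by 1.51 (SE 0.065) according to the authors' deposited table. VOPP1 fell by 1.52 (SE 0.094) and MARVELD1 fell from 1527 to 541 (2.82-fold).

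The 15 largest rises of abundant transcripts included receptors, secreted enzymes and nuclear proteins. IL1RAP, a co-receptor that interleukin-1 needs for signalling, rose from 211 to 950 estimated normalized counts (4.50-fold, adjusted p = 1.18e-80). TMEM2, a hyaluronidase of the cell surface, rose from 1066 to 4598 (4.31-fold, adjusted p listed as 0). PLAU, the urokinase plasminogen activator, rose from 718 to 2456, and ADAMTS3, a secreted metalloprotease that processes procollagen, rose from 396 to 1140. TGFBR1, the type I receptor for TGF-beta, rose from 508 to 1250, and SEMA7A, a membrane-anchored semaphorin, rose from 1433 to 3973. The sugar-transferring enzyme gene CSGALNACT2, of chondroitin sulfate synthesis, rose by 1.51 (SE 0.091), and GXYLT1, which extends O-glucose on Notch, by 1.41 (SE 0.091). Among nuclear and RNA proteins, the decapping enzyme gene DCP2 rose by 1.59 (SE 0.084), the zinc finger gene ZNF367 by 1.57 (SE 0.068), the chromatin gene HMGA2 by 1.41 (SE 0.13), the corepressor gene LCOR by 1.31 (SE 0.09) and ANKRD12 by 1.44 (SE 0.094) according to the authors' deposited table. The bicarbonate cotransporter gene SLC4A7 rose by 1.38 (SE 0.082). The rule took 15 genes in each direction, and 1 of the 15 rises is not described here.

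**Figure D1:**
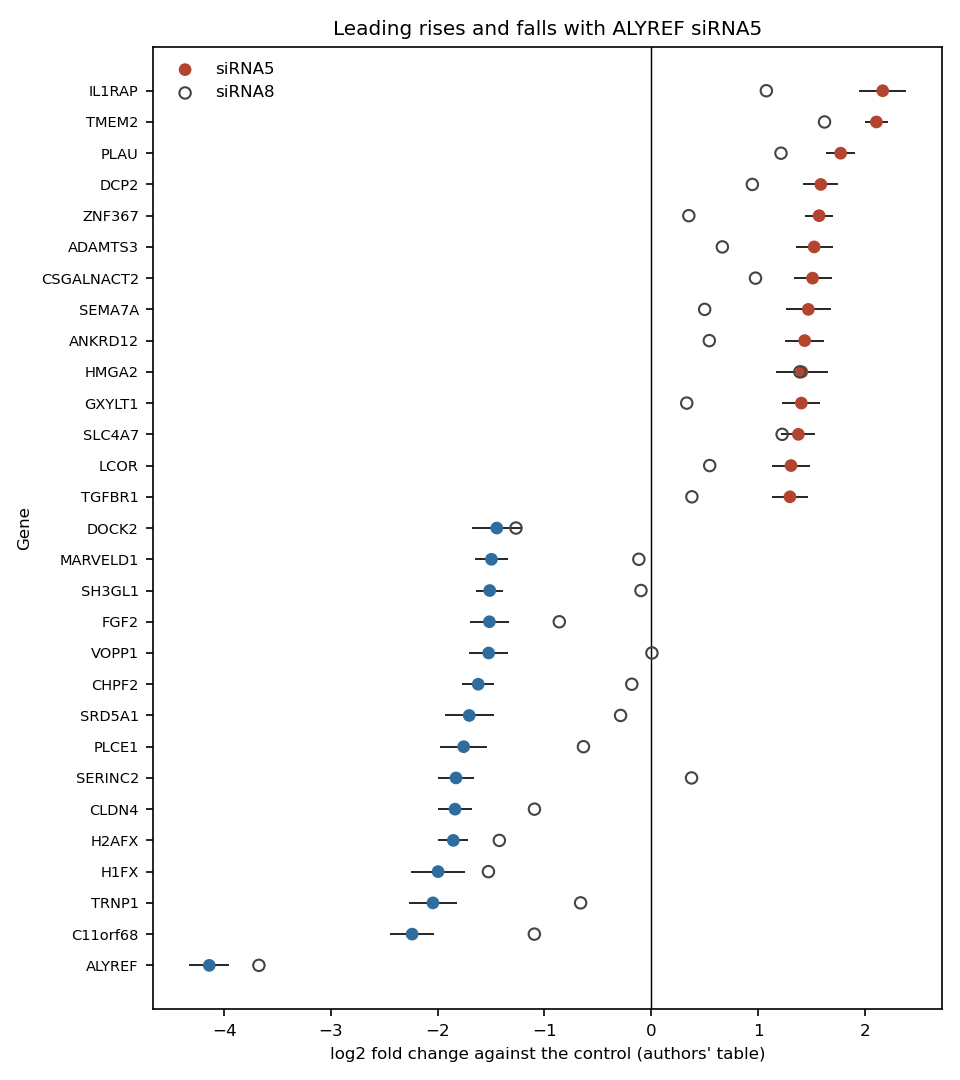
Log2 fold change against the control for the leading rises and falls among genes with a mean of at least 500, one gene per row. Filled points are siRNA5 with 95% intervals from the deposited SE, open circles are siRNA8 without intervals. ALYREF lies at -4.14, the other falls shown run from -2.24 to -1.45 and the rises from 1.30 to 2.17.

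Less abundant genes, with means from 50 to under 500, reached larger falls than the abundant genes other than ALYREF. ZNF358 fell by 2.51 (SE 0.19), TMEM158 by 2.46 (SE 0.15), TMEM150A by 2.27 (SE 0.38) and SPOCD1 by 2.11 (SE 0.19) according to the authors' deposited table. MARCKSL1, an actin-binding substrate of protein kinase C, fell from 750 to 148 estimated normalized counts (5.08-fold). TMEM158 has a single exon, and ZNF358 and MARCKSL1 have 2. PRKCE, the epsilon form of protein kinase C, rose from 139 to 564 estimated normalized counts (4.07-fold). EDN2, which encodes the vasoconstrictor endothelin-2, rose from 32.5 to 131 from a low base (4.04-fold, 95% interval 2.59 to 6.28). The zinc finger genes ZNF850 and ZNF678 rose by 1.94 (SE 0.17) and 1.78 (SE 0.21). KCNQ1OT1 rose by 1.82 (SE 0.20). It is transcribed antisense to KCNQ1, and the sources used here do not give the strand setting of the read counting, so its reads cannot be told apart from those of its partner.

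Transcripts that fell were richer in G and C than transcripts that rose. The protein-coding transcript of GENCODE release 29 with the largest total length was taken for 11024 of the 11679 genes (94.4%). For some genes that is a form with a short coding part, such as KRT8 (3 exons, 96 coding nt) and CHTOP (2 exons, 303 coding nt). Exon number, GC content, 3′ UTR length and heptamers of such genes can differ in their other isoforms. The median GC content of that transcript was 44.0% for the called rises, 52.7% for the called falls and 48.3% for genes not called. For changes of at least 2-fold the medians were 42.9% (180 rises) and 55.8% (309 falls). The 15 leading falls had a median GC content of 60.5% and 4 exons, and the 15 leading rises a median of 39.4% and 11 exons. The first 60 coding bases of the 4 deepest falls after ALYREF and of the 4 largest rises are shown to make this contrast visible, with every G and C in capitals, as transcribed and 5′ to 3′.
C11orf68: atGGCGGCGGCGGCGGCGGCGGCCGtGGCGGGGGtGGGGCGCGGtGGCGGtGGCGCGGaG
TRNP1: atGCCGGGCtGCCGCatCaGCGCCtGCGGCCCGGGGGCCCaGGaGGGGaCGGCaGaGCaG
H1FX: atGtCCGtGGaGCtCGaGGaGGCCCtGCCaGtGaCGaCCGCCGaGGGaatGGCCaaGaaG
H2AFX: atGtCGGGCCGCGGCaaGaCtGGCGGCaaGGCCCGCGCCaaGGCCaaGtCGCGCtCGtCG
IL1RAP: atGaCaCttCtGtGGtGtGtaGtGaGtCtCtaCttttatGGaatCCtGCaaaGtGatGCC
TMEM2: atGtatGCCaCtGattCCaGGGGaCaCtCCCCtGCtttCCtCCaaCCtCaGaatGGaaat
PLAU: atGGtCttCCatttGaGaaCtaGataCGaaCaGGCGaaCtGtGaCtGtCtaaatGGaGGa
DCP2: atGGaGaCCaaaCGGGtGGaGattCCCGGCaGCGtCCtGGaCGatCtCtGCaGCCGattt

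In these stretches G and C made up 88.3% in C11orf68, 78.3% in TRNP1, 65.0% in H1FX and 73.3% in H2AFX, against 43.3% in IL1RAP, 50.0% in TMEM2, 43.3% in PLAU and 58.3% in DCP2. Over the whole coding sequence the 4 falls held 66.3%, 79.7%, 67.0% and 70.2%, and the 4 rises 45.6%, 45.5%, 53.4% and 41.1%, in the same order. The stretch shown belongs to 1 annotated transcript, taken for its length, and other isoforms can begin differently. The PLAU stretch in particular may not be the start of its main isoform, so its low share may come from that choice. Whether each stretch is the start of the main isoform was not tested. The 4 falls have 1 or 2 exons each, and the 4 rises have 12, 24, 10 and 11.

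The same pattern ran through all genes by degree. In the 2205 genes with the lowest GC content (31.3% to 40.8%) the median log2 fold change was 0.155, with 38.9% called higher and 12.1% called lower. In the 2205 genes with the highest (58.0% to 74.1%) the median was -0.128, with 12.8% higher and 34.1% lower. Spearman's rho between GC content and log2 fold change across the 11024 genes was -0.275, given as a description, since genes are not independent replicates and share the same 4 libraries. Over 5512 genes with a mean of 500 or more it was -0.299. With siRNA8 rho had the same sign, at -0.179 over the 11024 genes and -0.093 over those 5512. Both siRNAs are set against the same control libraries, so the siRNA8 values in this paragraph are no independent repeat of those with siRNA5. The siRNA8 medians of the lowest and highest GC classes were 0.066 and -0.113. Exon number went with the changes mainly at its lower end. The 211 single-exon genes had a median of -0.283 (9.48% higher, 40.8% lower), genes with 2 or 3 exons -0.074 and genes with 10 to 19 exons 0.039. With siRNA8 the single-exon genes had a median of -0.146. Genes were then split jointly by exon number and at the median GC content of 47.9%. Those with up to 3 exons had a median of -0.195 above that GC content and -0.005 below it, and genes with 4 or more exons had -0.061 above and 0.113 below. The 2205 genes with the longest 3′ UTRs had a median of 0.096, with 35.3% higher and 18.8% lower. Values per library are not used here, so whether each library shows the GC pattern was not tested.

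**Figure D2:**
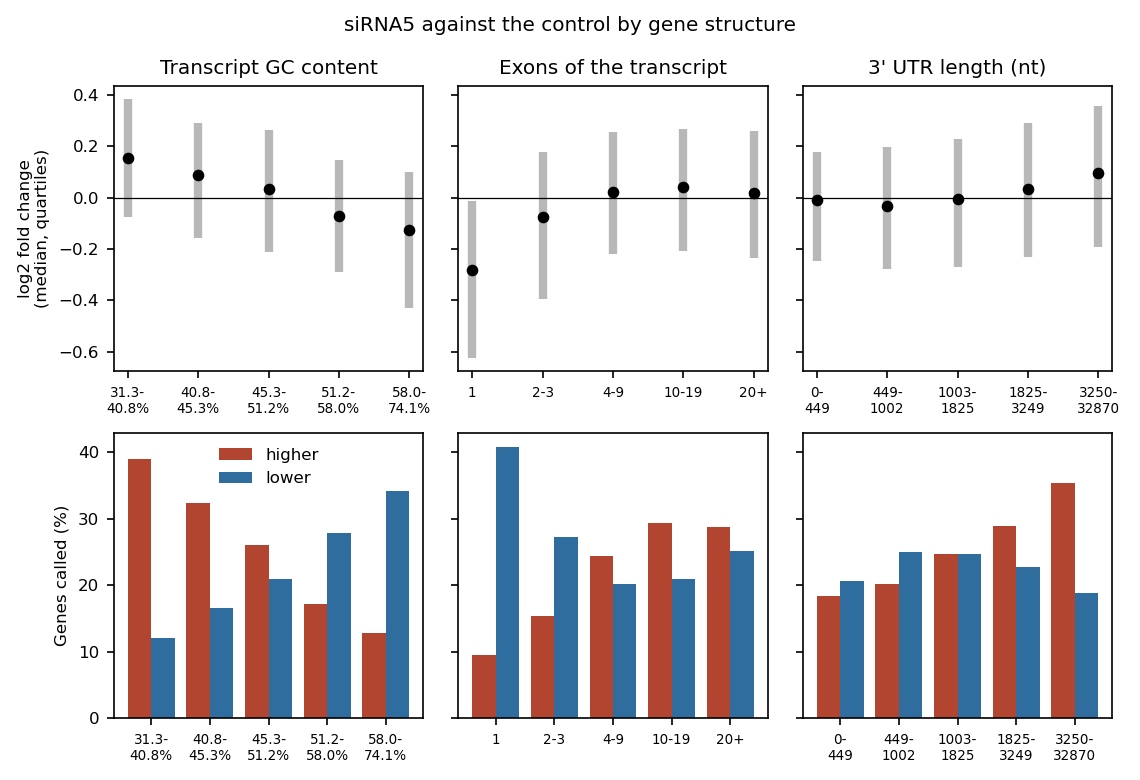
Log2 fold change of siRNA5 against the control by 5 equal classes of transcript GC content, by number of exons and by 5 equal classes of 3′ UTR length. Upper panels give the median (point) and quartiles (bar), lower panels the percentage of genes called higher and lower. The median falls from 0.155 to -0.128 from the lowest to the highest GC class, and single-exon genes lie lowest at -0.283.

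Short sequences in the 3′ UTR also sorted the changes. All heptamers were read on the transcript strand in the 3′ UTRs of 10892 genes, and the 15762 heptamers held by at least 100 genes were ranked by how the log2 fold change went with them once UTR length, GC content and mean level were fitted. This ranking was chosen after the data were seen and is a description without a test. At the falling end the first heptamer with siRNA5 was AACGCTG, held by 351 genes (3.22%). Those genes had a median of -0.130 against 0.018 in genes without it, and 40.5% were called lower against 21.8%. With siRNA8 the same genes had a median of -0.039 against 0.013, and the first heptamer at the falling end there was CTAGAAA. The second heptamer with siRNA5, ACGCTGA, overlaps the first by 6 letters. Of the genes at least 2-fold lower with siRNA5, 26 of 305 held AACGCTG (8.52%), and of those at least 2-fold higher, 3 of 178 (1.69%). The first heptamers with siRNA5 were picked by these same fold changes. The siRNA5 medians and shares of their holders therefore follow from that choice and are no separate support. VOPP1, HNRNPL, TPM4, LMNB2, KDM4B, ARID1A, NDUFA4, GJB2, LSM14B and FDFT1 are described here as falls and hold it, and so does SLC4A7, which rose. Of these falls, LSM14B, FDFT1 and HNRNPL were also called lower with siRNA8, at -1.99, -0.42 and -0.11. The others were not called there. Without all 351 holders, 24.6% of genes were higher and 21.4% lower. The medians of the lowest and highest GC classes, cut over the 10892 genes, were then 0.159 and -0.123. The holders are few, so leaving them out could move these values only slightly, and no conclusion is drawn from it. At the rising end the first heptamer was TATTTAT, a core sequence of the AU-rich elements that govern the decay of many short-lived transcripts. Its 4072 holders (37.4%) had a median of 0.109 against -0.031, and 35.0% were called higher against 20.1%. With siRNA8 the medians were 0.035 and -0.004. The medians and shares given for the heptamers are without the fit of UTR length, GC content and mean level. The sources used here do not give the sequence of siRNA5, and no match of a heptamer to it was tested.

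Partners of ALYREF in RNA export rose more often than they fell. The list of export adaptors and TREX subunits holds 30 genes, 28 of them in the table, of which 11 rose, 4 fell and 13 were not called (39.3% higher and 14.3% lower, median 0.12), ALYREF included among the falls. The export helicase gene DDX39A rose by 1.03 (SE 0.056), the adaptor gene CHTOP by 0.72 (SE 0.063) and the THO-associated gene THOC6 by 0.65 (SE 0.14) according to the authors' deposited table. ZC3H18, which links the cap-binding complex to RNA fate, fell by 0.53 (SE 0.072), and NCBP1, the large subunit of the cap-binding complex, fell by 0.25 (SE 0.062). Of the 30 nuclear pore genes in the table, 10 rose and 3 fell (33.3% and 10.0%). NUP35 rose by 0.52 (SE 0.091), NUP155 by 0.49 (SE 0.053) and NDC1 by 0.41 (SE 0.05), and NUP107 fell by 0.33 (SE 0.063).

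Splicing regulators changed in both directions. Among 17 genes of SR proteins, transformer proteins and speckle scaffolds, 8 rose and 2 fell (47.1% and 11.8%). SR proteins bind exonic enhancers. The rises were led by SRSF7 at 0.47 (SE 0.045) and by the speckle scaffold genes SON and SRRM2 at 0.42 and 0.37. Among 27 hnRNP genes, whose products often oppose SR proteins, 6 rose and 10 fell (22.2% and 37.0%). HNRNPL fell by 0.67 (SE 0.046) and HNRNPUL2 by 0.37 (SE 0.11), while PTBP3 rose by 0.37 (SE 0.049) and HNRNPA2B1 by 0.21 (SE 0.044). HNRNPA1 fell by 1.07 (SE 0.15), but it has many near-identical processed copies and its mean was only 279, so its counting is uncertain. Of 36 core spliceosome genes, 11 rose and 7 fell (30.6% and 19.4%), all within log2 changes of -0.30 to 0.39. The speckle kinase gene DYRK1A rose by 1.09 (SE 0.095) and the cyclin gene CCNL2 fell by 0.46 (SE 0.061). Their list of 17 held 3 rises and 3 falls (17.6% each).

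RNA polymerase II, Mediator and decay enzyme genes were called at shares near those of all genes. Of 43 RNA polymerase II and Mediator genes, 7 rose and 11 fell (16.3% and 25.6%). MED22, a Mediator head subunit, fell by 1.09 (SE 0.076), the polymerase subunit gene POLR2L fell by 0.83 (SE 0.087), and the Mediator kinase gene CDK8 rose by 0.54 (SE 0.093) according to the authors' deposited table. Of 49 decay enzymes, 11 rose and 14 fell (22.4% and 28.6%). The 5′ to 3′ pathway held rises of DCP2, given above, of the exonuclease gene XRN1 by 0.74 (SE 0.096) and of the deadenylase gene CNOT6L by 0.83 (SE 0.11). LSM14B, an RNA-granule protein, fell by 1.38 (SE 0.086), the exosome subunit gene EXOSC6, a single-exon gene, by 1.36 (SE 0.20), and CNOT1, the scaffold of the deadenylase complex, by 0.67 (SE 0.052). Of 19 exon junction and nonsense-mediated decay factors, 4 rose and 3 fell (21.1% and 15.8%). MAGOHB was the largest rise at 0.46 (SE 0.084) and SMG6 the largest fall at -0.43 (SE 0.098). Among 12 nuclear long non-coding RNAs and paraspeckle genes, the paraspeckle scaffold NEAT1 fell by 0.84 (SE 0.11) and TUG1 rose by 0.36 (SE 0.066).

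The chromatin lists held as many or more called falls as rises, some at shares near those of all genes. Of the 12 replacement and linker histone genes in the table (of 21 listed), 3 rose and 5 fell, H1FX and H2AFX among the falls, and the rises were small, at 0.21 (SE 0.045) for H3F3B and 0.19 (SE 0.052) for H2AFZ. Of 41 histone methyltransferases and demethylases, 8 rose and 11 fell (19.5% and 26.8%). The demethylase gene KDM4B fell by 1.08 (SE 0.12) and KDM5C by 0.65 (SE 0.065), while the methyltransferase gene SETD7 rose by 0.59 (SE 0.053). Of 30 histone acetylases and deacetylases, 7 rose and 10 fell (23.3% and 33.3%), with falls of HDAC6 by 0.95 (SE 0.12), HDAC11 by 0.66 (SE 0.19) and SIRT2 by 0.49 (SE 0.15) and a rise of KAT2B by 0.87 (SE 0.19). The list of SWI/SNF subunits and tumour suppressors of renal cancer held 9 rises and 9 falls among 25 genes (36.0% each). ARID1A, a SWI/SNF subunit, fell by 0.76 (SE 0.066), while PBRM1, the SWI/SNF subunit most often mutated in clear cell renal carcinoma, rose by 0.46 (SE 0.072). The transcript of VHL fell by 0.66 (SE 0.12). Of the 29 homeobox genes in the table, 0 rose and 7 fell (24.1% lower), with a median of -0.24. HOXB9 fell by 1.05 (SE 0.11) and HOXA9 by 0.62 (SE 0.21). The homeobox transcripts had a median GC content of 55.1%, above the 47.9% of all genes, and the part of GC content in this count was not tested.

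Among called cell cycle genes rises outnumbered falls, and in the p53 pathway called falls outnumbered rises. Of 50 mitosis genes, 27 rose and 8 fell (54.0% and 16.0%, median 0.18). The phosphatase gene CDC25A rose by 0.71 (SE 0.083), the kinetochore genes CENPF and NDC80 by 0.56 (SE 0.075) and 0.49 (SE 0.07), and FOXM1, the transcription factor that drives many of them, fell by 0.83 (SE 0.057) according to the authors' deposited table. CDC25B and PKMYT1 fell by 0.43 and 0.29. Of 56 DNA replication genes, 20 rose and 9 fell (35.7% and 16.1%). Cyclin E2 (CCNE2) rose by 0.88 (SE 0.079) and the licensing inhibitor gene GMNN by 0.48 (SE 0.066), whereas FEN1, the flap endonuclease, fell by 0.42 (SE 0.066). Of 29 genes of the p53 pathway, 3 rose, 10 fell and 16 were not called (10.3% higher and 34.5% lower). CDKN1A, the cell cycle inhibitor p21, fell from 1108 to 470 estimated normalized counts (2.36-fold, adjusted p = 2.38e-31). CCNG1 fell by 0.87 (SE 0.077) and the nucleotide excision repair gene DDB2 by 0.73 (SE 0.15), while MDM4, an inhibitor of p53, rose by 0.76 (SE 0.17) and the death receptor genes TNFRSF10A and TNFRSF10B, which p53 activates, rose by 0.60 (SE 0.15) and 0.36 (SE 0.058). Homologous recombination genes were balanced, with 8 rises and 7 falls among 33 (24.2% and 21.2%), near the shares of all genes. RAD51C rose by 0.69 (SE 0.12) and NBN by 0.55 (SE 0.053), and BRCA1 fell by 0.55 (SE 0.083) and FANCD2 by 0.51 (SE 0.081).

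Genes of protein folding in the endoplasmic reticulum (ER), of the proteasome and of vesicle traffic held more called rises than falls. Of 30 ER chaperone and unfolded protein response genes, 18 rose and 3 fell (60.0% and 10.0%, median 0.21). The co-chaperone gene DNAJB9 rose from 189 to 393 estimated normalized counts, the stress sensor kinase gene EIF2AK3 (PERK) rose by 0.69 (SE 0.086) and EDEM3, which trims glycans of misfolded proteins, by 0.69 (SE 0.079) according to the authors' deposited table. OS9, a lectin of the same degradation route, fell by 0.64 (SE 0.058). Of 26 cytosolic heat shock genes, 13 rose and 4 fell (50.0% and 15.4%). DNAJB6 rose by 0.46 (SE 0.063) and DNAJB2 fell by 0.89 (SE 0.086). Of 44 proteasome genes, 17 rose and 1 fell (38.6% and 2.27%), with 26 not called, the rises led by PSMD7, which rose by 0.61 (SE 0.054), and by the activator gene PSME4, which rose by 0.44 (SE 0.063). The fall was PSMD5, an assembly chaperone, by 0.59 (SE 0.075). Of 45 Rab GTPases, switches of membrane traffic, 14 rose, 2 fell and 29 were not called (31.1% and 4.44%), with RAB23 at 0.69 (SE 0.11) and RAB3B at 0.53 (SE 0.082). Of 51 coat, SNARE and Golgi genes, 24 rose and 11 fell (47.1% and 21.6%). SEC24A, a cargo receptor of the COPII coat, rose by 1.08 (SE 0.072), and SNAP23, a SNARE of the plasma membrane, fell by 1.12 (SE 0.076). Lysosome and V-ATPase genes went both ways, with 14 rises and 16 falls among 53 (26.4% and 30.2%). The pump subunit gene ATP6V1A rose by 0.65 (SE 0.076), and the peptidase gene TPP1 fell by 1.20 (SE 0.12) and TFE3, a transcription factor of lysosomal genes, by 0.75 (SE 0.071).

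Genes of sterol synthesis and of amino acid supply rose more often than they fell. Of 34 cholesterol and fatty acid synthesis genes in the table, 15 rose and 7 fell (44.1% and 20.6%). HMGCS1, an early enzyme of the pathway, rose by 0.60 (SE 0.073) and the sterol carrier gene STARD4 by 0.56 (SE 0.14). FDFT1, squalene synthase, fell by 0.69 (SE 0.096) and LSS, lanosterol synthase, by 0.55 (SE 0.11). Of 34 genes of the ATF4 amino acid response and of tRNA synthetases, 13 rose and 4 fell (38.2% and 11.8%). The cystine transporter gene SLC7A11 rose by 0.71 (SE 0.097), the mitochondrial folate enzyme gene MTHFD2 by 0.69 (SE 0.048) and PSAT1 of serine synthesis by 0.54 (SE 0.055), while the transcription factor gene ATF5 fell by 0.89 (SE 0.14). Of 29 NRF2 genes, 6 rose and 8 fell (20.7% and 27.6%), including a fall of the aldose reductase gene AKR1B1 by 0.67 (SE 0.052). Of 25 glycolysis genes, 8 rose and 7 fell (32.0% and 28.0%). Hexokinase 2 (HK2) rose by 1.01 (SE 0.072) and the glucose transporter gene SLC2A3 by 0.76 (SE 0.12), and ALDOA fell by 0.29 (SE 0.042).

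Genes of the hypoxia-inducible factor pathway, which is active in this line, rose more often than they fell, with 14 rises and 6 falls among 31 (45.2% and 19.4%). The carbonic anhydrase gene CA12 rose by 0.91 (SE 0.055) and the lipid droplet gene PLIN2 by 0.79 (SE 0.066) according to the authors' deposited table. IGFBP3 fell by 0.79 (SE 0.12). Of 79 cytosolic ribosome genes, 0 rose, 8 fell and 71 did not pass (10.1% lower), the largest of the falls named by the rule being RPS27L, a p53-responsive relative of a ribosomal protein, at -0.47 (SE 0.069). Ribosomal protein genes have many processed copies, so reads may be shared. Of 76 mitochondrial ribosome genes, 10 rose and 22 fell (13.2% and 28.9%), with MRPL50 at 0.81 (SE 0.088) and MRPL4 at -0.55 (SE 0.074). Of 90 respiratory chain genes, 12 rose and 12 fell (13.3% each), including falls of the assembly factor gene NDUFAF8 by 1.24 (SE 0.12) and of NDUFA4 by 0.75 (SE 0.074).

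Keratin, actin and matrix genes held more falls than rises. Of 13 keratin, vimentin and lamin genes in the table, 0 rose and 8 fell (61.5% lower, median -0.32, median GC content 56.8%). KRT19 fell from 557 to 163 estimated normalized counts (3.41-fold, adjusted p = 2.60e-38), KRT8 fell by 0.55 (SE 0.049) and the lamin gene LMNB2 by 0.69 (SE 0.045). Of 64 actin regulators, 15 rose and 26 fell (23.4% and 40.6%). The bundling protein gene LCP1 fell by 0.95 (SE 0.058) and the tropomyosin gene TPM4 by 0.81 (SE 0.043), and WASF1, which activates branched actin, rose by 0.67 (SE 0.10). Of 42 collagens, laminins and matrix genes in the table (of 60 listed), 9 rose and 17 fell (21.4% and 40.5%, median GC content 53.9%). Tenascin C (TNC) fell by 0.86 (SE 0.079), the laminin gene LAMA3 by 0.85 (SE 0.12) and EFEMP1 by 0.78 (SE 0.14), while thrombospondin 1 (THBS1) rose by 0.83 (SE 0.067) and LTBP2, which binds fibrillin, by 1.43 (SE 0.19). Of 13 integrin genes, 7 rose and 2 fell (53.8% and 15.4%), with ITGA6 at 0.50 (SE 0.06) and ITGB3 at -0.26 (SE 0.064).

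Surface proteolysis and hyaluronan turnover held several of the largest rises. In the urokinase and serpin list, 6 rose and 6 fell among 20 genes. The protease gene PLAU rose as given above, and the receptor gene PLAUR rose by 0.88 (SE 0.11). Tissue factor (F3) fell by 0.57 (SE 0.063) and SERPINB7 by 1.11 (SE 0.15). Of 28 metalloprotease and inhibitor genes, 10 rose and 5 fell (35.7% and 17.9%). ADAM10, a sheddase that cleaves Notch and many other surface proteins, rose by 0.99 (SE 0.046) and ADAM19 by 0.87 (SE 0.063), while the gelatinase gene MMP2 fell by 1.18 (SE 0.10) according to the authors' deposited table. Of 35 hyaluronan and chondroitin sulfate genes, 14 rose and 8 fell (40.0% and 22.9%). The hyaluronan synthase gene HAS3 rose by 0.65 (SE 0.095) beside TMEM2, and EXT1, which polymerises heparan sulfate, fell by 0.58 (SE 0.051). Of 27 junction genes in the table, 9 rose and 10 fell (33.3% and 37.0%). Claudins went apart, with CLDN1 higher by 0.96 (SE 0.079) while CLDN4 was lower. The gap junction gene GJB2 fell by 1.00 (SE 0.13).

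**Figure D3:**
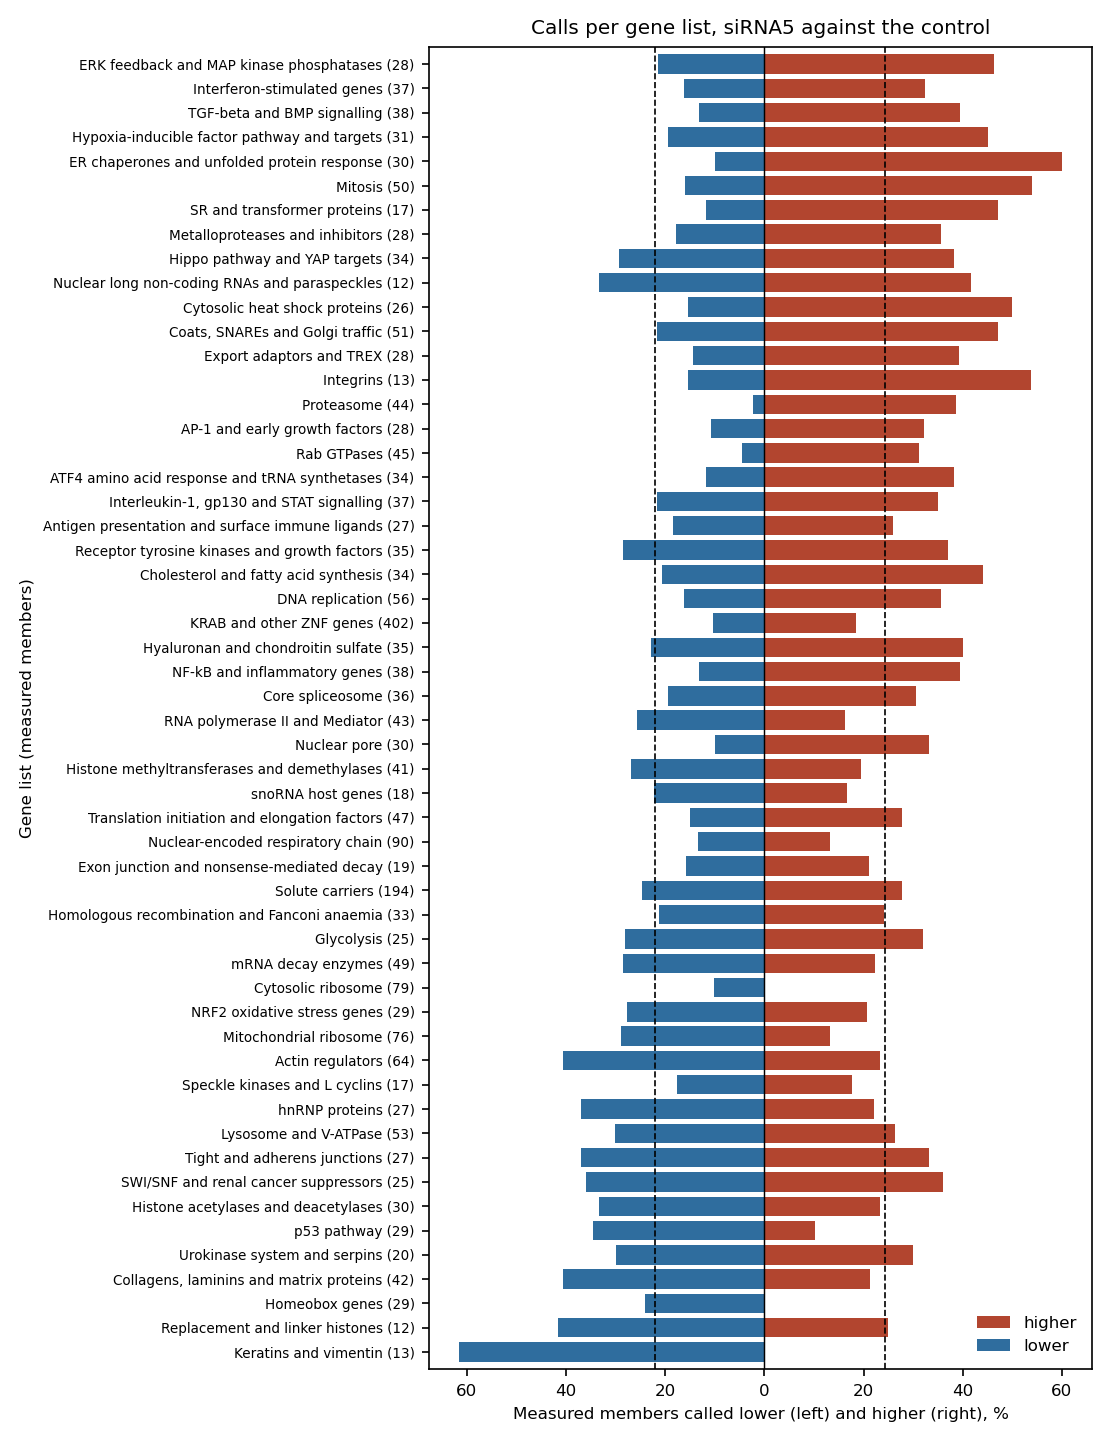
Percentage of measured members called higher (right) and lower (left) with siRNA5 in each of 54 gene lists, sorted by median log2 fold change, with the number of measured members in brackets. Dashed lines mark the shares of all genes, 24.4% higher and 22.0% lower. ER chaperones (60.0%) and mitosis (54.0%) reach far on the right, and keratins and vimentin (61.5%) on the left.

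Signalling genes showed more rises than falls in several pathways. Of 38 TGF-beta and BMP genes, 15 rose and 5 fell (39.5% and 13.2%, median 0.22). Beside TGFBR1, the activin receptor gene ACVR2B rose by 1.47 (SE 0.16) and SKIL, a feedback repressor of SMAD proteins, by 0.82 (SE 0.082), while the ligand gene TGFB2 fell by 0.57 (SE 0.072) and ID3, a BMP target, by 0.42 (SE 0.12) according to the authors' deposited table. Of 28 ERK feedback genes and MAP kinase phosphatases, 13 rose and 6 fell (46.4% and 21.4%), with a median of 0.41. DUSP6, a phosphatase of ERK, rose by 0.86 (SE 0.20) and SPRY2 by 0.67 (SE 0.16), while ERRFI1, a feedback inhibitor of EGFR, fell by 0.43 (SE 0.048) and DUSP10 by 0.55 (SE 0.11). Of 35 receptor tyrosine kinase and growth factor genes, 13 rose and 10 fell (37.1% and 28.6%). EPHA4 rose by 1.26 (SE 0.18) and the ligand gene PDGFB by 0.95 (SE 0.11), and TYRO3 fell by 0.81 (SE 0.099). Of 28 AP-1 and early growth genes, 9 rose and 3 fell (32.1% and 10.7%). The falls were JUND by 1.12 (SE 0.16), ELK3 by 0.92 (SE 0.084) and SRF by 0.32 (SE 0.072), and KLF3 rose by 0.62 (SE 0.098). Of 34 Hippo pathway genes, 13 rose and 10 fell (38.2% and 29.4%). The kinase gene LATS2 was at 0.66 (SE 0.088) and the ecto-nucleotidase gene NT5E at 0.91 (SE 0.069).

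Inflammatory genes rose more often than they fell. Of 38 NF-kB and inflammatory genes in the table, 15 rose and 5 fell (39.5% and 13.2%). The adhesion receptor gene ICAM1 rose from 1601 to 3056 estimated normalized counts (1.91-fold), the chemokine gene CXCL8 rose by 0.85 (SE 0.14) and the transcription factor gene IRF1 by 0.90 (SE 0.089). The kinase gene IKBKB fell by 0.45 (SE 0.15) and BIRC2 by 0.40 (SE 0.091). In interleukin-1, gp130 and STAT signalling, 13 of 37 rose and 8 fell (35.1% and 21.6%). Beside IL1RAP, the leukaemia inhibitory factor receptor gene LIFR rose by 1.20 (SE 0.095) and the adaptor kinase gene IRAK2 by 0.84 (SE 0.15), whereas IRAK1 fell by 0.94 (SE 0.045) and STAT6 by 0.50 (SE 0.065) according to the authors' deposited table. Of 37 interferon-stimulated genes in the table, 12 rose and 6 fell (32.4% and 16.2%), with rises of IFIT3 by 0.86 (SE 0.11) and IFIT2 by 0.91 (SE 0.28) and falls of ISG15 by 0.87 (SE 0.13) and of the RNA sensor gene DDX58 by 0.58 (SE 0.17). Of 27 antigen presentation and immune ligand genes, 7 rose and 5 fell (25.9% and 18.5%), shares near those of all genes. CD276 rose by 0.51 (SE 0.061), and CD274, which encodes PD-L1, fell by 0.66 (SE 0.12).

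**Figure D4:**
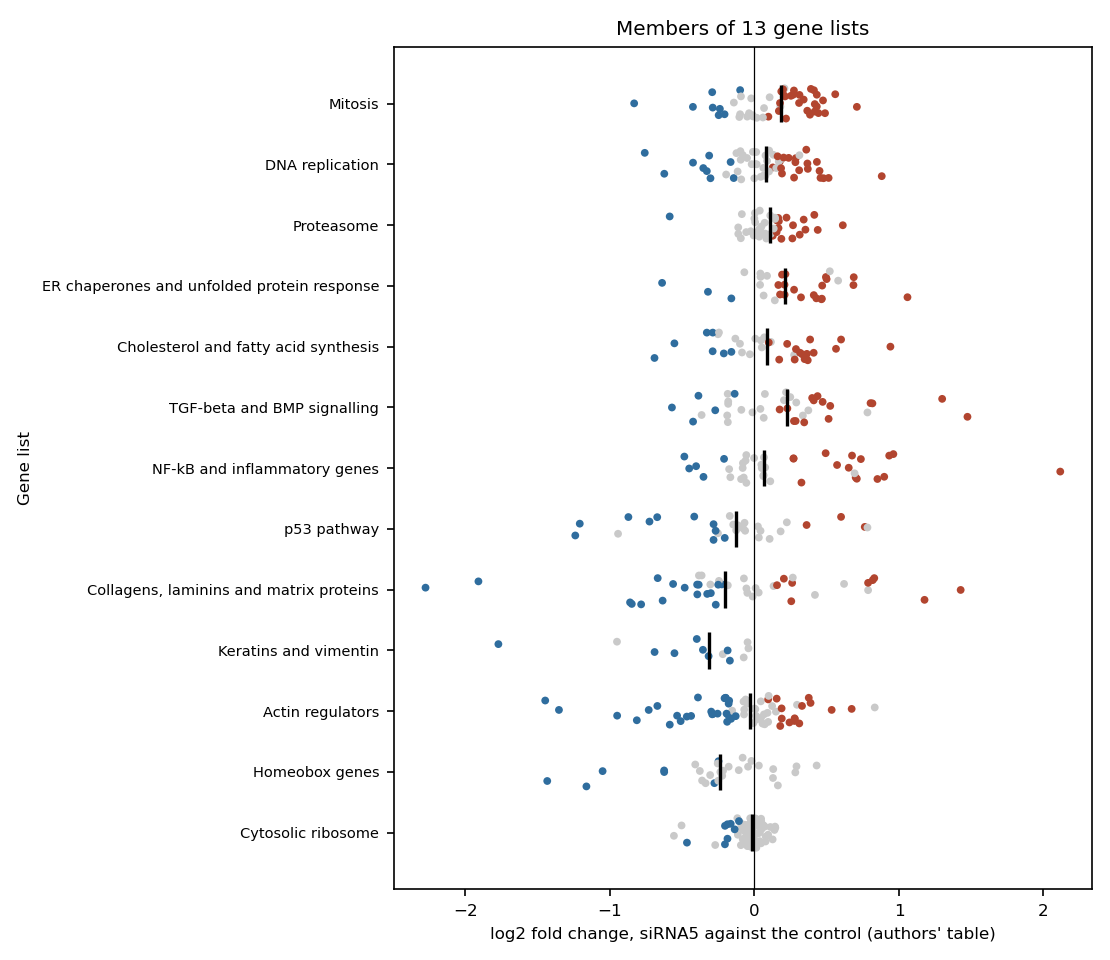
Log2 fold change of each measured member of 13 gene lists with siRNA5, one point per gene, coloured red when called higher, blue when called lower and grey when not called. Black bars are list medians, which run from -0.32 for keratins and vimentin to 0.22 for TGF-beta and BMP signalling. Points are spread vertically at random within a list.

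Marker genes of kidney and of other cell types were looked up, which is no check of the identity of the line. Of 17 kidney tubule and renal carcinoma markers, 12 were in the table, of which 5 rose and 4 fell (41.7% and 33.3%). NNMT, an enzyme abundant in clear cell carcinoma, rose by 0.97 (SE 0.066) and the kidney transcription factor gene PAX2 by 0.60 (SE 0.13), while CD70 fell by 0.57 (SE 0.069) according to the authors' deposited table. Of 10 immune markers 2 were in the table, and of 9 endothelial and 5 erythroid markers 0 were. Whether low genes were removed is not stated, so a missing marker does not show that it was not expressed.

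Where siRNA5 differed from siRNA8 was tested per gene from both of the authors' deposited tables, which share the control libraries and the fit. The SE of the difference leaves out that sharing and is an upper bound. The difference passed the threshold for 3739 genes, 32.0% of all. Of these, 1294 were called higher with siRNA5 and lay above siRNA8, and 1102 were called lower and lay below it. A further condition of at least 2-fold against the control left 99 and 160 genes. In 379 genes siRNA5 was called higher and siRNA8 lower, and in 307 genes the reverse held, with the difference past the threshold in each.

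Several of the leading falls with siRNA5 had values near or above the control with siRNA8. SERINC2 had a log2 fold change of -1.83 (SE 0.084) with siRNA5 and 0.38 (SE 0.069) with siRNA8 (adjusted p of the difference = 7.21e-88). VOPP1 stood at 0.01 (SE 0.078), SH3GL1 at -0.10 (SE 0.058) and MARVELD1 at -0.12 (SE 0.068) with siRNA8, and none of the 3 was called there (smallest adjusted p = 0.167). Their differences passed the threshold, with the largest of the 3 adjusted p-values at 1.20e-33. KRT19 was at -0.02 (SE 0.10) and TMEM158 at 0.08 (SE 0.11) with siRNA8. By contrast DOCK2, HMGA2 and SLC4A7 had log2 fold changes of -1.27, 1.39 and 1.23 with siRNA8, and their differences did not pass (adjusted p = 0.461, 0.951 and 0.344).

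Over all genes, 17.2% lay above siRNA8 and 14.8% below it past the threshold, and the gene groups are set against these shares. In mitosis genes, 32 of 50 lay above siRNA8 and 3 below it, and the medians were 0.18 with siRNA5 and -0.17 with siRNA8. DNA replication had 26 above and 2 below among 56, and the proteasome 23 above and 2 below among 44. In cholesterol and fatty acid synthesis 17 of 34 lay above and 0 below. With siRNA8, HMGCS1 stood at -0.29 (SE 0.076), against 0.60 (SE 0.073) with siRNA5. In NF-kB and inflammatory genes 15 of 38 lay above and 1 below, with ICAM1 at -0.11 (SE 0.064) with siRNA8. In the p53 pathway 0 of 29 lay above and 12 below, and CDKN1A was at -1.24 (SE 0.10) with siRNA5 and 0.22 (SE 0.087) with siRNA8 (adjusted p of the difference = 3.17e-25). Actin regulators had 9 above, a share near that of all genes, and 26 below among 64, and matrix genes 4 above and 15 below among 42.

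Single genes moved in opposite directions with the 2 siRNAs, each with its difference past the threshold. SYPL1, a vesicle membrane protein gene, was at 0.76 (SE 0.051) with siRNA5 and -1.92 (SE 0.063) with siRNA8. THBS1 was at 0.83 (SE 0.067) and -1.53 (SE 0.068), and LCP1 at -0.95 (SE 0.058) and 1.17 (SE 0.053). CD274 was at -0.66 (SE 0.12) and 1.81 (SE 0.10), SLC7A11 at 0.71 (SE 0.097) and -0.70 (SE 0.11), and the elongation factor gene EEF1A2 at 0.50 (SE 0.056) and -1.0 (SE 0.061). TNC, DUSP10 and ELK3 fell with siRNA5 as given above and rose with siRNA8, at 0.51, 1.56 and 0.51. The largest adjusted p of these 9 differences was 1.01e-20.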

How the data were processed

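Polyadenylated RNA of 6 libraries was sequenced by the authors as directional paired ends of 42 nt, and the 4 libraries of siRNA5 and of the control are the ones described. STAR, Picard, HTSeq and DESeq2, with no version, and the build hg19 are named in the submitters' processing notes. Per the file headers, each gene has a signal, which is its mean normalized count in the fit the authors made with DESeq2, and a log2 fold change with its standard error. The Wald score and the p-values, plain and adjusted, are also given per the file headers. The Wald score equalled the fold change over its error, and the adjusted p-values equalled Benjamini-Hochberg values over all rows when recomputed. The sources used here do not say whether fold changes were shrunk or low genes removed. Counts per library are not used here, so depth per library is unknown and no interval from counts was made.

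Group levels were estimated by solving the mean over 6 libraries with both fold changes, assuming equal group sizes and no shrinkage. Intervals are the fold change plus and minus 1.96 SE. The difference between siRNAs was divided by the square root of the sum of both squared errors, adjusted over 11679 genes. Gene structures came from the protein-coding transcript with the largest total length per gene in GENCODE release 29 (GRCh38). Genes were matched by symbol (10936 genes) or an older symbol (88 genes). 3′ UTRs of at least 50 nt were searched for heptamers. Reads without a feature were 6.23% and ambiguous reads 1.62% of all means, and neither row was called (smallest adjusted p = 0.328). Members and gene lists were chosen with earlier results of these data known. The rule for names took ALYREF, the 15 largest rises and falls with a mean of at least 500, the 5 largest with a mean from 50 to under 500, the 5 largest in each direction that also differed from siRNA8, and up to 3 rises and 3 falls per list with a mean of at least 100. It gave 324 genes, and part of them is described. Some of them are not reported here. Alternatives were a threshold of 0.01, means of at least 100 or 500, a test against a log2 change of 0.322, centring on the median gene, errors multiplied by 1.5 and, for the difference, the control variance taken out. Python 3.11.15, pandas 2.3.3, numpy 2.4.6, scipy 1.17.1 and matplotlib 3.10.9 were used.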

Additional observations from a re-analysis of the deposited data

Results flagged for a closer look

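SERINC2 moved in opposite directions with the 2 siRNAs among the leading genes of siRNA5. Its log2 fold change was -1.83 (SE 0.084) with siRNA5 and 0.38 (SE 0.069) with siRNA8, a difference of -2.21 (adjusted p = 7.21e-88 by the normal test of the difference over all genes), which is what drew attention to it. The estimated levels were 1647 normalized counts in the control, 464 with siRNA5 and 2140 with siRNA8. Its 3′ UTR does not hold the heptamer AACGCTG, and the part of either siRNA's sequence in this gene was not tested.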

How the results depend on the processing

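Most counts of called genes kept their size under a threshold of 0.01 and under centring on the median gene. The genes called at least 2-fold higher and lower were 107 and 171 among genes with a mean of at least 100, and 40 and 53 at a mean of at least 500, where 1412 genes were called lower in all, since fewer genes were tested. A test against a log2 change of 0.322 left 603 genes higher and 602 lower, and errors multiplied by 1.5 left 1747 and 1422. For the difference between the siRNAs, the test against that change gave 496 genes above siRNA8 and 390 below (886 in all), errors multiplied by 1.5 gave 983 and 789 (1772 in all), and the control variance taken out gave 2712 below and 5615 in all. ALYREF stayed called under each of the 6 settings run. Of the 324 genes named by the rule, 169 stayed called under every setting run in which they were tested, 155 lost the call under at least 1, and 0 reversed. The test against that change changed 102 of the 108 list counts by more than 1.5 times. Errors multiplied by 1.5 changed 58 of them that far, and a mean of at least 500 changed 26. Under every setting, 4 of the 108 stayed within 1.5 times.

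No paired analysis was possible because the tables hold no values per library. For the same reason leaving out each replicate, the replicate block and a second tool were not run, and a single library's part in a call was not tested. With 2 libraries a group, the errors rest on the spread that the authors' fit shared across genes. Depth limits the 1423 genes with a mean under 50, whose median SE was 0.438.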

Other observations

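Gene families outside the pathways above gave these values with siRNA5. Of 402 zinc finger genes with a ZNF symbol, many of them KRAB repressors that silence transposons, 74 rose and 42 fell (18.4% and 10.4%), with a median log2 fold change of 0.08 and a median GC content of 43.3%. The largest fall named by the rule was ZNF358 and the next was ZNF117, which fell by 1.30 (SE 0.21). Of 194 solute carrier genes, 54 rose and 48 fell (27.8% and 24.7%). SLC30A1, a zinc exporter, rose by 1.05 (SE 0.27), SLC35D2, a carrier of nucleotide sugars into the Golgi, rose by 1.00 (SE 0.095), and SLC8A1, a sodium-calcium exchanger, fell by 1.46 (SE 0.17). Of 47 translation initiation and elongation factors, 13 rose and 7 fell (27.7% and 14.9%), with EIF4G3 at -0.69 (SE 0.071) and EIF2B2 at 0.42 (SE 0.095).

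Long non-coding RNAs were lower more often than higher. Of 299 genes annotated as such in GENCODE release 29 and without a coding structure, 27 rose and 59 fell (9.03% and 19.7%), with a median of -0.22, against 25.5% and 22.3% and a median of 0.01 for the 11024 coding genes. Their median mean was 30.6 normalized counts against 500.3, and the part of this lower level in the shares was not tested. Among 18 snoRNA host genes, whose spliced transcripts are substrates of nonsense-mediated decay in many cases, 3 rose and 4 fell (16.7% and 22.2%). SNHG15 rose by 0.48 (SE 0.13), and DANCR and SNHG7 fell by 0.78 and 0.63.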
